A study of Mus musculus with 2 samples.

Results

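Plasma cells of mouse bone marrow were selected on their transcripts from a pair of single-cell RNA libraries: 79 of 15579 kept cells of the T1D library and 65 of 12803 kept cells of the control library, 144 of 28382 cells in all. A barcode counted as a plasma cell when it had at least 5 counts of Jchain, no count of Siglech and a count for at least 2 of the 6 genes Mzb1, Xbp1, Sdc1, Derl3, Tnfrsf17 and Prdm1. Only barcodes with 200 or more genes, and with mitochondrially encoded counts no higher than 20%, were considered. The T1D library came from C57/BL6 mice given streptozotocin, a toxin of pancreatic beta cells, and had the phenotype of high blood sugar. The control library came from C57/BL6 mice given sodium citrate solution, with normal blood sugar. Marrow of femurs and tibias was used for both, and the labels do not state the number, sex or age of the mice behind a library. With 1 library in each group there is no replicate check, no test between groups was possible, and the exact 95% intervals given throughout cover counting error only.

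Plasma cells are the end stage of the B lineage and secrete antibody. Their heavy chain constant gene gives the isotype: IgM before class switching, and IgG, IgA or IgE after it. J chain joins the units of multimeric IgM and IgA, and antibody is folded and assembled in the endoplasmic reticulum (ER), whose capacity is raised by Xbp1. In the marrow, long-lived plasma cells depend on signals through receptors such as BCMA (Tnfrsf17), CD28 and CXCR4.

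The values that chose the cells describe them and are not findings. Jchain ranged over 21 to 819 counts per cell in the T1D library, with a median of 237, and over 8 to 1522 in the control library, with a median of 406. The threshold of 5 counts lay far below nearly all members. The control cell with 8 Jchain counts was followed by one with 32, and it also carried 18 Igha and 8 Ighm counts. Just below the threshold, 6 T1D and 17 control cells had 1 to 4 Jchain counts with at least 2 of the other markers. With enough Jchain but fewer than 2 of the other markers, 38 T1D and 13 control cells were left out, with a median of 9 and 6 Jchain counts. Of those, 14 T1D cells and 1 control cell had 20 or more. Siglech, a plasmacytoid dendritic cell marker, removed no T1D cell and 5 control cells. The most markers any T1D cell carried was 5 of the 6, in 6 cells, while 6 control cells carried all 6. Mzb1, an ER cochaperone of the B lineage, was found in 71 of 79 T1D and 60 of 65 control plasma cells, and in 0.761% and 6.51% of the other T1D and control cells.

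The shares of kept cells were alike, 0.507% in T1D (0.402 to 0.632%) and 0.508% in control (0.392 to 0.647%). T1D plasma cells were shallower, with a median of 4544 counts per cell (1696 to 10488) against 6519 (2326 to 14804) in control, and the other cells had medians of 2750 in T1D and 3622 in control. The members summed to 373219 counts in T1D and 444925 in control. Of the kept barcodes, 249 sequences occurred in both libraries, and no plasma cell was among them. Counts of neutrophil granule and alarmin genes (S100a8, S100a9, Ngp, Ltf, Camp, Lcn2, Retnlg) were present in most plasma cells, with a median of 11 (0 to 593) in T1D and 6 (1 to 880) in control. At least 20 such counts were carried by 34 of 79 T1D and 14 of 65 control plasma cells, and all 7 markers had counts in both libraries. Their summed level was 17250 CPM (counts scaled to a sum of 1000000) in T1D plasma cells and 9460 CPM in control plasma cells, and 76765 and 78246 CPM in the other cells of those libraries. B cell markers, 7 in all, had a count for 4 of the 7 in T1D, in 49 of 79 plasma cells and with at most 5 counts in a cell, and for all 7 in control, in 50 of 65 plasma cells and with at most 16. Their summed level was 255 CPM in T1D and 378 CPM in control plasma cells, and 60.6 and 493 CPM in the other cells of those libraries. The defining marker Pax5 was at 0 in T1D plasma cells and in 3 control plasma cells. T or NK cell markers, also 7, had a count for 4 in T1D, in 4 cells with at most 8 counts, and for 3 in control, in 7 cells with at most 5. Cd3e and Cd3g were at 0 in both. One control plasma cell carried 532 erythroid counts. No doublet caller was run, and the part that these counts, or the gap in depth, play in the results was not tested. Results that rest on the neutrophil-rich cells, those with 20 or more such counts, are given with and without them.

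Antibody transcripts made up a median of 24.5% of a plasma cell's counts in T1D (7.19 to 52.1%) and 34.2% in control (2.02 to 53.9%). Heavy chain constant genes were not used to choose the cells. An isotype was called where 1 constant gene had at least 10 counts and at least 3 times the next. This gave a call in 78 of 79 T1D cells and 64 of 65 control cells, and the leading gene held a median of 100% and 99.95% of a cell's heavy chain counts in T1D and control. The unresolved T1D cell had no more than 1 count of any heavy chain gene beside 435 counts of Igkc and 110 of Jchain. The unresolved control cell was the one with 8 Jchain counts.

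IgA was the commonest isotype in both libraries, with 46 of 79 T1D cells (58.2%, 46.6 to 69.2%) and 46 of 65 control cells (70.8%, 58.2 to 81.4%). IgG of any subclass was called in 28 T1D cells (35.4%, 25 to 47.0%) and 10 control cells (15.4%, 7.63 to 26.5%). The intervals of both isotypes overlap between the libraries. Without the neutrophil-rich cells IgA made up 60.0% of 45 T1D and 70.6% of 51 control cells. IgM was called in 3 T1D cells (3.80%, 0.790 to 10.7%) and 8 control cells (12.3%, 5.47 to 22.8%). Ighm itself did not pass the size rule described below over all plasma cells, with a log2 ratio of -0.32. Without the neutrophil-rich cells it was lower, at 1130 CPM in T1D and 15695 CPM in control, with 1 T1D cell holding 49.3% of its counts over all. The 3 T1D IgM cells had a median of 97 neutrophil marker counts. The subclasses IgG2c and IgG2b were found in 10 and 7 T1D cells, and in 6 and 4 control cells. IgG3 was called in 1 T1D cell with 603 Ighg3 counts. IgD was called in 1 T1D cell, which had 1003 Ighd and 527 Jchain counts, and no cell was called IgE.

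**Figure D1:**
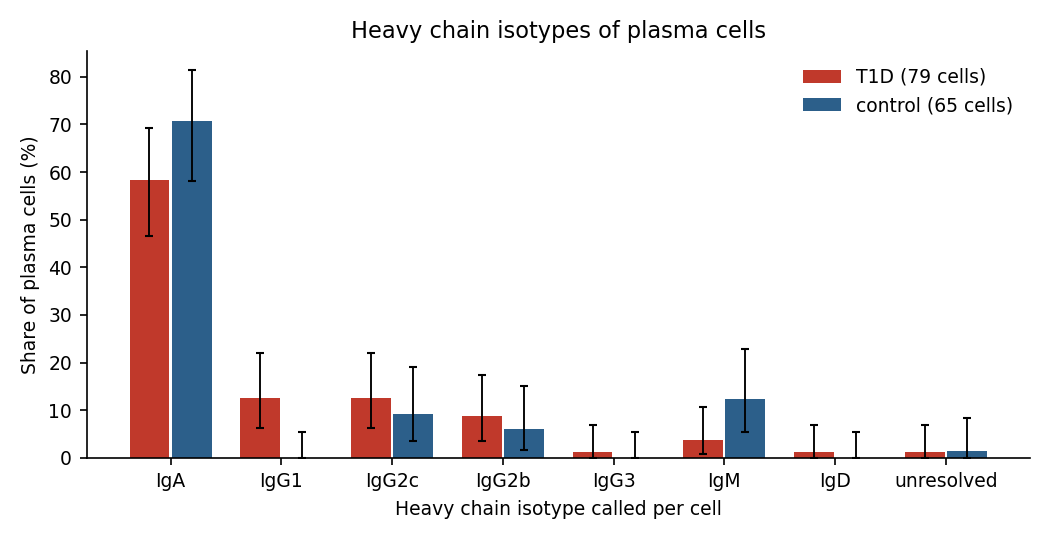
Share of plasma cells (%) called for each heavy chain isotype in the T1D library (79 cells, left bars) and the control library (65 cells, right bars). Error bars are exact 95% intervals of the share, which cover counting error only. IgA leads in both libraries at 58.2% and 70.8%, and IgG1 was called in 12.7% of T1D cells and in no control cell.

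IgG1 was called in T1D plasma cells and in no control plasma cell. It was the call of 10 of 79 T1D cells (12.7%, 6.24 to 22.0%) and of 0 of 65 control cells, which allows a share of up to 4.62% by a floor of 3 counts and up to 5.52% by the exact interval. T1D plasma cells held 6364 counts of Ighg1 in 12 cells, and control plasma cells held none, so that the T1D level of 17052 CPM was at least 2529-fold higher against a floor of 3 counts over the control group. No T1D cell held more than 28.3% of these counts. Outside the plasma cells, Ighg1 was found in 2.32% of T1D cells and in 1 control cell with 2 counts. Over all kept cells the gene had 7368 counts in T1D and 2 in control. Whether the gene was counted as fully in the control library as in the T1D library was not tested, and the 0 of 65 and the fold rest on that. By contrast Ighg2c, at 10525 CPM in T1D and 11258 CPM in control, and Ighg2b, at 4081 and 5787 CPM, passed the size rule described below in neither direction. Antibody counts were also found outside the plasma cells: Igha had a count in 9.30% of other T1D cells and 8.35% of other control cells, and at least 10 counts in 35 and 25 of them.

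IgA cells carried the most heavy chain and J chain transcripts among the switched cells. The leading heavy chain gene had a median of 966 counts in T1D IgA cells (159 to 1986) and 1327 in control IgA cells (409 to 3069). In IgG cells it had a median of 378 counts in T1D (56 to 1802) and 669 in control (227 to 1279). Taken as a share of the cell's own counts, the medians were 19.7% and 8.81% for T1D IgA and IgG cells, and 23.1% and 8.30% for control IgA and IgG cells. Jchain had a median of 332 and 95.5 counts in T1D IgA and IgG cells, and of 489 and 258 in control IgA and IgG cells. Since at least 5 counts of Jchain were asked for, the values of Jchain are a description.

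**Figure D2:**
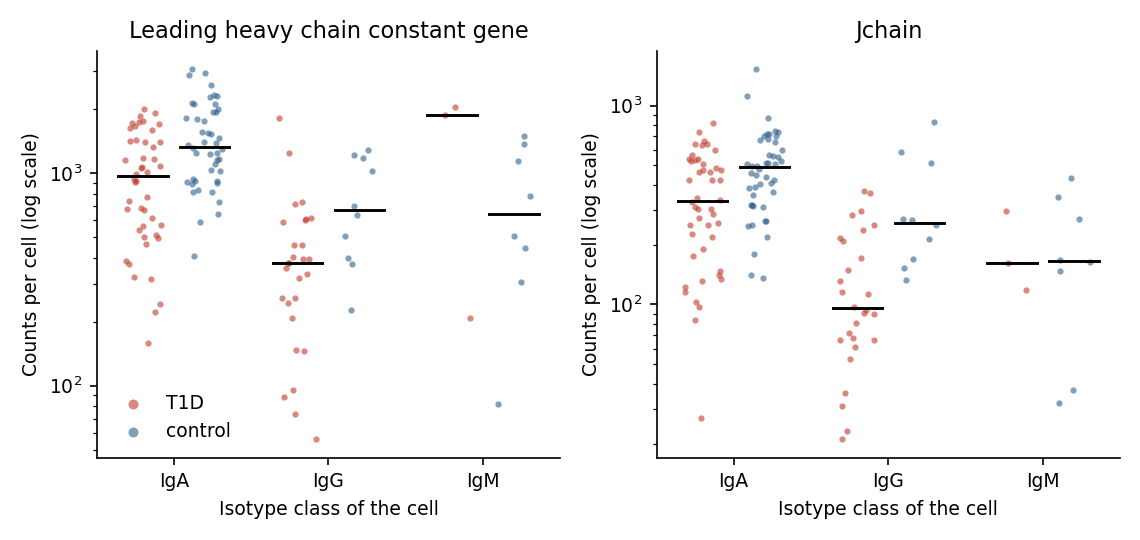
Counts per cell (log scale) of the leading heavy chain constant gene (left panel) and of Jchain (right panel) in plasma cells called IgA, IgG or IgM. Each point is a cell, T1D cells stand left of control cells, and black bars are medians. The medians of IgG cells lie below those of IgA cells of the same library in both panels, and the cells overlap. The Jchain medians were 332 and 95.5 counts in T1D IgA and IgG cells.

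The kappa light chain gene Igkc led in 74 T1D and 61 control cells, and lambda genes in 4 T1D cells (5.06%, 1.4 to 12.5%) and 4 control cells (6.15%, 1.70 to 15%). Among the lambda genes, Iglc1 was lower in T1D, at 1447 CPM against 4776 CPM in control. Iglc2 was higher, at 2872 against 1171 CPM, and so was Iglc3, at 635 against 189 CPM. A few cells carried these sums, since 1 T1D cell held 78.8% of the Iglc2 counts and 1 control cell 47.9% of the Iglc1 counts. Within IgA cells alone the direction of Iglc2 turned, with 544 CPM in T1D and 1016 CPM in control.

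Variable gene use was diverse. A heavy chain variable gene was called by the rule of 10 counts and 3 times the next in 39 T1D cells, which used 25 genes, and in 40 control cells, which used 27. Ighv1-82 was the commonest in T1D, with 5 cells: 2 IgA and 1 each of IgD, IgG1 and IgG2b. In control, Ighv1-26 was in 3 cells, 2 of them IgG2c and 1 IgM. Heavy and light variable genes were both called in 19 T1D and 35 control cells, and no combination of them occurred in more than 1 cell of a library. At these depths a variable gene was called in only part of the cells, so that related cells may have gone unseen.

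Gene levels were then compared on the summed counts of all plasma cells of a library, as log2 of the ratio of T1D over control CPM with 5 CPM added to each. To pass the size rule a gene needed a log2 ratio of 1 or more in either direction, a level of 50 CPM in the library where it was higher, and a ratio whose exact 95% interval left out 1. Of 1576 genes with 50 CPM in either library, 162 (10.3%) were higher in T1D and 82 (5.2%) lower, immunoglobulin genes making up 31 and 34 of them, and the median log2 ratio was 0.17. The split depends on the scaling: with immunoglobulin genes left out of the totals it was 190 higher and 178 lower, with edgeR's trimmed mean scaling 111 and 118, and with DESeq2's size factors 86 and 142. These moved the median ratio of the 1576 genes by -0.11, -0.15 and -0.24. Without the neutrophil-rich cells, which moved the median by -0.17, the split was 122 higher and 113 lower, and 64 of the 162 and 60 of the 82 genes still passed.

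No secretory gene was higher in T1D plasma cells by the size rule, and the 3 that were lower were the ER chaperone genes Hspa5 and Dnajb9 and the glycosylation gene Stt3a. They were 3 of 67 tested outside the selection rule, against 10.3% higher and 5.2% lower among all genes tested. The median log2 ratio of the 67 was -0.19, against 0.17 for all genes. The list took a median of 1.86% of the non-immunoglobulin counts of a T1D plasma cell (0.488 to 10.9%) and 2.70% of a control plasma cell (1.06 to 6.96%). In the other cells of the libraries the same 67 genes had a median log2 ratio of -0.23.

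Among 21 ER chaperones and folding enzymes, 2 were lower in T1D and the median log2 ratio was -0.55, the same measure in the other cells being -0.37. Hspa5, which encodes the ER Hsp70 chaperone BiP that binds unassembled heavy chains, had 0 to 56 counts per cell in T1D with a median of 2, against 0 to 112 in control with a median of 9. The groups overlap, and a count was found in 67 of 79 T1D and 64 of 65 control cells. Its level was 959 CPM (862 to 1064) in T1D and 2288 CPM (2150 to 2433) in control, a log2 ratio of -1.25. It was at -0.97 and did not pass without the neutrophil-rich cells. The ratio was nearly as low in the other cells of the libraries, at -1.15. Dnajb9, a co-chaperone of BiP, was at 32.2 CPM in 11 T1D cells and 144 CPM in 35 control cells, a log2 ratio of -2.0 against -0.75 in other cells. Hsp90b1, the ER Hsp90 paralog GRP94 and the most abundant chaperone of the list, did not pass the size rule. It was at 2971 CPM (median 7 counts per cell) in T1D and 4882 CPM (median 19) in control, a log2 ratio of -0.72.

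Other chaperones were also below 0 without passing: Creld2 at -0.89, Hyou1 at -0.83, Dnajb11 at -0.80, Calr at -0.77, Manf at -0.69 and Pdia4 at -0.69. P4hb, the protein disulfide isomerase, was at 268 CPM in T1D and 225 CPM in control, a log2 ratio of 0.25. Txndc5, a further disulfide isomerase, stood at -0.18. Creld2 turned to 0.81 when every cell was thinned to 1000 counts. Without the neutrophil-rich cells 2 of the 21 were lower with a median of -0.52, against 7.96% of all genes, and Hspa5 was not among them. Within IgA cells alone, a subset chosen after the data had been seen, 5 of 20 were lower with a median of -0.86, against 5.96% of all genes.

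Among the other steps of secretion only Stt3a passed. None of 14 translocon and signal peptide genes passed the size rule, with a median log2 ratio of -0.13. Sec11c, a catalytic subunit of the signal peptidase, was at 624 CPM in T1D and 665 CPM in control. Ssr3, a subunit of the translocon-associated protein complex, was at 410 CPM in T1D and 326 CPM in control. Of 8 genes of N-glycosylation 1 was lower, against 5.2% of all genes. The gene was Stt3a, the catalytic subunit of the oligosaccharyltransferase that works at the translocon, at 37.5 CPM in T1D and 92.2 CPM in control. The median of the 8 was -0.58, close to that of the chaperones. None of 12 genes of transport from ER to Golgi passed, nor any of 9 genes of ER-associated degradation, where Edem1, which takes part in the choice of misfolded glycoproteins, was at 547 CPM in T1D and 445 CPM in control. Of 4 genes of the unfolded protein response none passed, and Atf4, its translationally induced factor, was at 244 CPM in T1D and 272 CPM in control.

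**Figure D3:**
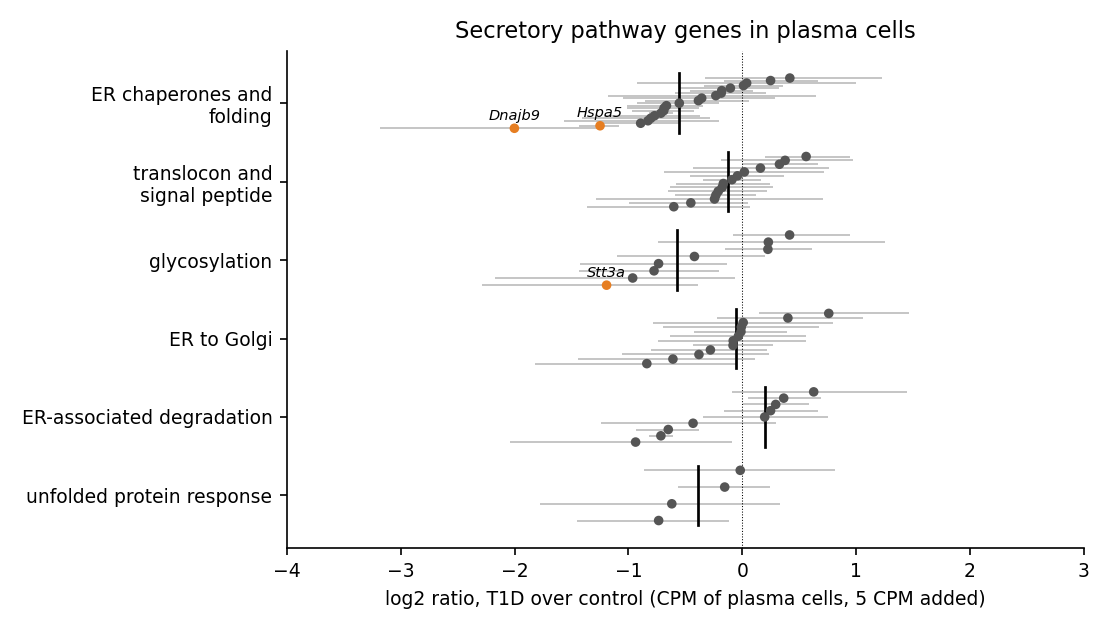
Log2 ratio of T1D over control CPM (5 CPM added) in plasma cells for each tested secretory gene, grouped by step. Points are genes, grey lines exact 95% counting intervals of the ratio, orange points genes that passed the size rule and black bars the median of a step. Dnajb9 at -2.0, Hspa5 at -1.25 and Stt3a at -1.19 are the genes that passed, and the chaperone median stands at -0.55.

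Promoters of ER chaperones are known to share the ER stress response element, CCAAT and CCACG with 9 bases between them, which is read by NF-Y together with ATF6 or XBP1. The letters were searched on both strands in the 250 bases before the gene start, in RefSeq promoters of GRCm38.p6. Of 94 secretory genes 79 were matched by symbol, and 10 of these held the element, as did 0.130% of all 27025 genes. The 8 tested genes with it that were not part of the selection rule all had a log2 ratio below 0 (-1.25 to -0.19, median -0.74), against 30 of 48 among the other matched secretory genes tested (median -0.09). Of the 8 only Hspa5 passed the size rule. All but Syvn1 belong to the chaperone list, where 17 of 21 tested genes were below 0 with a median of -0.55. Whether the element matters apart from membership in that list was not tested. The ratios of the chaperones had been seen before the letters were searched, and a match to the letters is not a site of binding. Dnajb9 had no match in its window. The 3 promoters shown are those of Hspa5, which passed the size rule, of Hsp90b1, the most abundant chaperone, and of Creld2, which had the next lowest ratio in the chaperone list. They run 5′ to 3′ along the gene, capitals mark the element, and they lie at chr2:34771840-34772089 for Hspa5 (plus strand), chr10:86705445-86705694 for Hsp90b1 (minus strand) and chr15:88819396-88819645 for Creld2 (plus strand).
Hspa5: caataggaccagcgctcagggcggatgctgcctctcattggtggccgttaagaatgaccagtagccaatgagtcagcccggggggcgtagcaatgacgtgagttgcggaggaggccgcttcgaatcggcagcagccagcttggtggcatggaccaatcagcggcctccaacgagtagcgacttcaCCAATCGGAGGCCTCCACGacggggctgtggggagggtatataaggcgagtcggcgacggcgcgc
Hsp90b1: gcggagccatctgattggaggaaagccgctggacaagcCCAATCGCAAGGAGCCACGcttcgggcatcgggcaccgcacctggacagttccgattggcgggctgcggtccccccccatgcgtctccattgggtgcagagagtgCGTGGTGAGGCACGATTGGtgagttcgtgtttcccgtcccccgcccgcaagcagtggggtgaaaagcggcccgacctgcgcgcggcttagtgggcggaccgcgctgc
Creld2: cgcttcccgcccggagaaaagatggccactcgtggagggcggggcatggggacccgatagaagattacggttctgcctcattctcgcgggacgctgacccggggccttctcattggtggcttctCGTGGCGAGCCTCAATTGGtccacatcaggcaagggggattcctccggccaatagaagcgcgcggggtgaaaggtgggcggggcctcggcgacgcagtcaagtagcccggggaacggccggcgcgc
The element of Hspa5 starts 65 bases before the gene start. Hsp90b1 has 2, starting 212 and 107 bases before it and facing opposite ways. That of Creld2 starts 126 bases before it and is read on the other strand.

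Most survival and niche receptors did not differ by the size rule. Of 17 receptor, adhesion and surface genes tested outside the selection rule, none was higher in T1D and 2 were lower, against 10.3% and 5.2% of all genes, with a median log2 ratio of -0.01. Without the neutrophil-rich cells 1 of 17 was lower, against 7.96% of all genes. Within IgA cells none was lower and 1 of 17 higher, against 5.96% and 13.4% of all genes. Tnfrsf13b, which encodes the receptor TACI for the cytokines BAFF and APRIL, had a count in 37 of 79 T1D cells (46.8%, 35.5 to 58.4%) and 35 of 65 control cells (53.8%, 41.0 to 66.3%). Its level was 188 CPM in T1D and 164 CPM in control. Of other T1D and control cells, 7.66% and 12.8% had a count. Cd28, the co-stimulatory receptor that on marrow plasma cells carries a survival signal, was found in 25 T1D cells (31.6%) and 21 control cells (32.3%), and in 1.19% and 2.21% of other cells. It stood at 80.4 CPM in T1D and 80.9 CPM in control. When every plasma cell was thinned to 1696 counts, the lowest total of any of them, the expected share of cells was 23.5% and 20.9% for Tnfrsf13b in T1D and control, and 14.3% and 12.2% for Cd28.

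Cxcr4, the receptor for the marrow chemokine CXCL12, was found in 19 T1D cells (24.1%) and 17 control cells (26.2%). These shares lie below those of other cells, 36.3% in T1D and 42.5% in control. How much of the Cxcr4 counts is background from other cells was not tested. Il6st, the signalling subunit of the interleukin-6 receptor, was found in 9 T1D and 6 control cells, near its share in other cells. Itga4, the alpha 4 integrin that binds VCAM1, was found in 34 T1D and 25 control cells, at 147 CPM in T1D and 98.9 CPM in control. Slamf7, a surface receptor of plasma cells, was found in 23 T1D and 28 control cells, and in 0.413% of other T1D and 6.65% of other control cells. Slc3a2, the heavy chain of amino acid transporters also known as CD98, was found in 41 T1D and 47 control cells, at 335 CPM in T1D and 301 CPM in control. Ly6a, which encodes the surface protein Sca-1, was found in 53 T1D and 38 control cells, at 726 CPM in T1D and 730 CPM in control.

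Ccr10, the receptor for the mucosal chemokine CCL28 that is known from IgA plasma cells, was 1 of the 2 receptors that passed. It was found in 14 T1D cells (17.7%, 10 to 27.9%) and 23 control cells (35.4%, 23.9 to 48.2%), at 56.3 CPM in T1D and 119 CPM in control, a log2 ratio of -1.02. Its share in other cells was 0.0194% in T1D and 0.149% in control. Within IgA cells it was at 84.0 CPM in T1D and 147 CPM in control and no longer passed, nor did it without the neutrophil-rich cells (-0.96). Ccr2, the receptor of monocyte chemokines, was at 34.8 CPM in T1D and 119 CPM in control, but it was found in 7 T1D and 5 control cells and in 22.4% and 23.6% of other T1D and control cells. Within IgA cells Ccr2 was at 53.1 CPM in T1D and 57.5 CPM in control. Of 3 genes of survival and death tested none passed. Mcl1, the BCL-2 family protein on which plasma cells depend, was at 437 CPM in T1D and 299 CPM in control, a log2 ratio of 0.54. In the other cells Mcl1 was at 758 CPM in T1D and 458 CPM in control, above the plasma cells. A count was found in 76.9% and 73.0% of those cells. How much of the Mcl1 counts of plasma cells is background was not tested. Bcl2 was found in 10 T1D and 8 control cells.

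**Figure D4:**
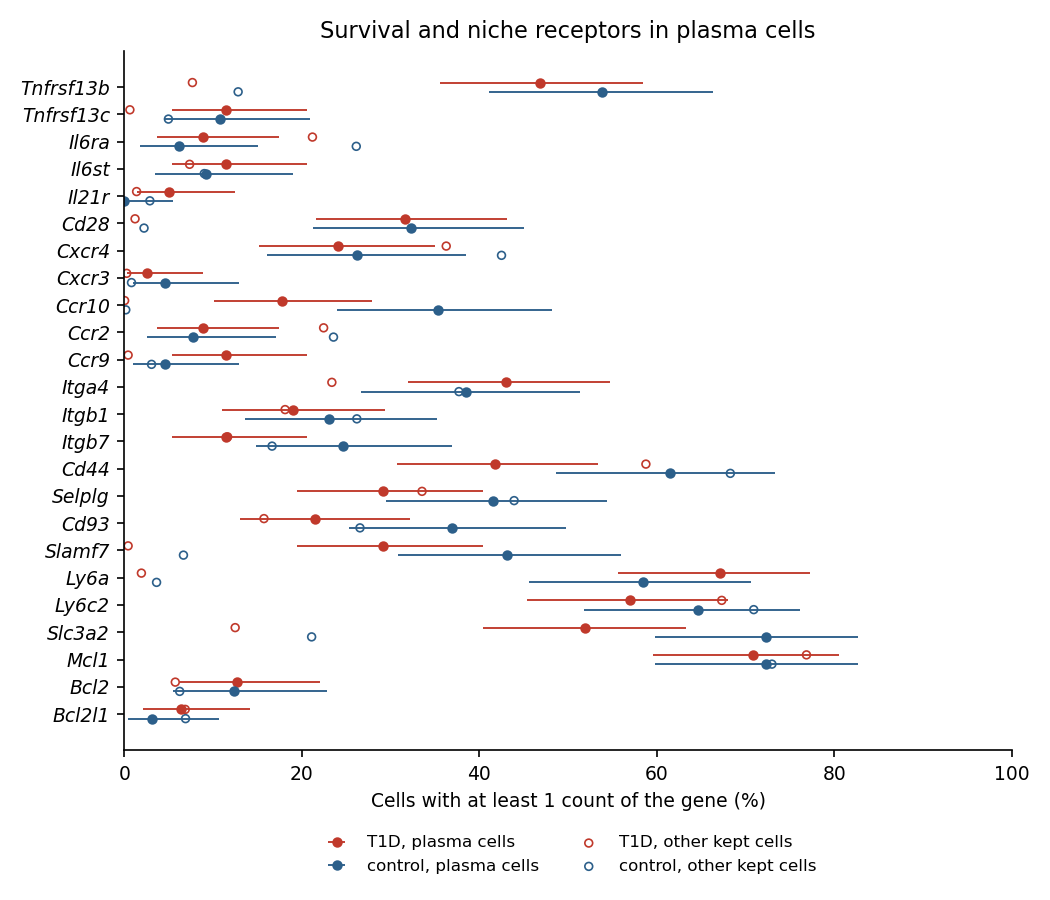
Share of cells (%) with at least 1 count of survival, niche and surface genes. Filled points are plasma cells with exact 95% intervals (79 T1D cells above, 65 control cells below in each row), and open points are the other kept cells of the same library. Tnfrsf13b, Cd28, Ccr10, Slamf7, Slc3a2 and Ly6a lie far above the other cells in both libraries, while Cxcr4 and Cd44 lie below them. The control interval of Cd44, 48.6 to 73.3%, covers the 68.3% of the other control cells.

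Regulators of the plasma cell state were found in both libraries. Irf4, which drives plasma cell fate, was at 212 CPM in T1D and 200 CPM in control. Ell2, the elongation factor that favours secreted over membrane immunoglobulin, was at 305 CPM in T1D and 335 CPM in control. Of 5 regulators tested 1 was higher and 1 lower in T1D, against 10.3% and 5.2% of all genes. Pou2af1, the B lineage coactivator OBF-1, was higher in T1D at 383 CPM in 54 cells, against 178 CPM in 32 control cells. It still passed without the cells carrying many neutrophil counts (log2 ratio 1.49) and within IgA cells (1.42). Zbtb20, a zinc finger repressor expressed in plasma cells, was lower, at 48.2 CPM in T1D and 106 CPM in control, and passed in neither of those subsets. Of 6 B cell genes tested none passed, and their median log2 ratio was -0.39. Cd74, the invariant chain of MHC class II, had a count in 74 T1D and 62 control cells. Of 8 cell cycle genes 2 were higher, against 10.3% of all genes: Birc5 at 53.6 CPM in 11 T1D cells against 15.7 CPM in 2 control cells, and Ube2c at 88.4 CPM in 11 T1D cells against 33.7 CPM in 3 control cells. Birc5 encodes survivin and Ube2c a ubiquitin-conjugating enzyme of mitosis. Mki67, the proliferation marker, did not pass, at 268 CPM in T1D and 353 CPM in control. At least 3 of the 20 cell cycle genes of the list had a count in 23 T1D and 14 control cells. Without the neutrophil-rich cells 1 of 5 cycle genes was higher, against 8.59% of all genes, and Birc5, at 0.86, did not pass. Within IgA cells 5 of 9 were higher, against 13.4% of all genes. That subset keeps the neutrophil-rich cells, and 27 of 46 T1D and 36 of 46 control IgA cells were not neutrophil-rich. The cycle genes of IgA cells were not compared without them. Of 5 heat shock genes none passed. Of 7 glucocorticoid and FOXO genes 2 were higher, against 10.3% of all genes: H1f0, a linker histone, and Irs2, an insulin receptor substrate, at 91.1 CPM in T1D and 31.5 CPM in control. H1f0 was at 121 CPM in T1D and 47.2 CPM in control, and did not pass without the cells carrying many neutrophil counts, nor did Irs2. Of 9 mitochondrially encoded genes 1, mt-Nd5, was lower, against 5.2% of all genes. The 1 interferon gene tested, Bst2, did not pass.

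The genes at the ends of the range were then named, also where they belong to a list above, as Hspa5, Dnajb9 and Camp do. At least 20% of the plasma cells of the higher library had to have a count. No cell could hold more than 25% of that library's counts for the gene. Slpi, a secreted inhibitor of leukocyte proteases, had the highest ratio, with 7569 CPM in T1D and 937 CPM in control, a log2 ratio of 3.01, against 0.15 in the other cells. It had 0 to 627 counts per cell in T1D, with a median of 2, and 0 to 109 in control, with a median of 1. The groups overlap, and 22 T1D and 5 control cells had 20 or more counts. It was followed by Dstn, an actin-depolymerizing factor, at 147 CPM in T1D and 31.5 CPM in control, and by Cpeb3, a regulator of mRNA translation, at 69.7 and 13.5 CPM. Pitpnc1, Samd8, Mapk3, Il1b, Il1r2, Atp6v1d, Nfu1 and Camp were also among the named higher genes. Camp and Il1r2 are also genes of neutrophils. Without the cells carrying 20 or more neutrophil marker counts Slpi, Cpeb3, Pitpnc1 and Il1b still passed. Dstn, Samd8, Mapk3, Il1r2, Atp6v1d, Nfu1 and Camp did not. Camp is itself among the markers whose counts chose the removed cells, so for Camp this check cannot decide. Of the genes that did not pass, the log2 ratios were then 1.71 for Dstn, 1.93 for Samd8, 1.39 for Mapk3 and 2.39 for Il1r2. They were 0.88 for Atp6v1d, 1.17 for Nfu1 and 0.69 for Camp. Apart from Atp6v1d and Camp, these genes lost the minimum level or the interval and not the size. With few counts left, their ratios are imprecise. Dstn fell from 147 to 21.2 CPM in T1D and from 31.5 to 3.01 CPM in control. The interval of its ratio was then 0.697 to 347. Samd8, Mapk3, Il1r2 and Nfu1 were then at 37.1, 31.8, 21.2 and 26.5 CPM in T1D. In control they were at 6.03, 9.04, 0 and 9.04 CPM. Il1b was at 217 CPM in T1D and 62.9 CPM in control plasma cells, below the 582 and 332 CPM of the other cells of those libraries. How much of its plasma cell counts is background was not tested. The same holds for Dstn, Il1r2 and Camp, which in the other cells were at 467, 331 and 15372 CPM in T1D. In the other control cells they were at 366, 214 and 13844 CPM. It holds too for Mapk3, Atp6v1d and Nfu1, which stood at 187, 97.9 and 81.2 CPM in the other T1D cells. In the other control cells these were at 140, 104 and 67.8 CPM. The lower ones were led by Ftl1, the ferritin light chain, at 26.8 CPM in T1D and 130 CPM in control, then Dnajb9, Ppa1, Atp5o, Srsf7, Ifitm3, Lyz2, Rgs2, Smarca4, Gm8995, Nrbp1 and Hspa5. Apart from Hspa5, Dnajb9 and Ppa1, the lower genes stood higher in the other cells than in the plasma cells of the same library. Lyz2, the lysozyme of myeloid cells, was at 230 CPM in T1D and 647 CPM in control plasma cells. It had a count in more of the T1D cells, 44.3% against 35.4% in control, with at most 10 and 43 counts in a cell. In the other cells it was at 2537 and 4293 CPM. Ifitm3 was at 26.8 and 87.7 CPM in T1D and control plasma cells, and 215 and 487 CPM in the other cells. How much of these plasma cell counts is background was likewise not tested. By the size rule Ftl1, Ifitm3, Smarca4 and Hspa5 were lower in the other cells too, at log2 ratios of -1.05, -1.16, -1.12 and -1.15. The rest did not pass there, with ratios from -0.88 for Rgs2 to 0.01 for Nrbp1. Of the lower genes, 10 of the 12 still passed without the neutrophil-rich cells, Nrbp1 and Hspa5 falling short. Nrbp1 was then at -1.50 with an interval of the ratio that reached 1, and Hspa5, at -0.97, stood at 1098 CPM in T1D and 2160 CPM in control.

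Since the isotypes differed in number, IgA cells were set against IgG cells within each library, on genes other than those of immunoglobulins. This comparison was chosen after the data had been seen, and cells of a library are not replicates. In T1D, with 46 IgA and 28 IgG cells, 3.19% of 1758 genes were higher in IgA cells and 13.6% lower. In control, with 46 IgA and 10 IgG cells, 2.27% of 1941 genes were higher and 28.5% lower. Of 1329 genes tested in both, 2 were higher and 48 lower in IgA cells in both libraries, and 20 went opposite ways. Of these 1329 genes, 155 were lower in IgA cells in T1D (11.7%) and 291 in control (21.9%), so that the 48 are 31.0% of the T1D and 16.5% of the control calls. The 2 higher ones are 4.26% of 47 T1D and 6.06% of 33 control calls, beside 3.54% and 2.48% of all 1329. Of those 50 genes, 40 were in at least 20% of the cells of the higher isotype with no cell over 25% of the counts in at least 1 library. Immunoglobulin counts were a median of 27.7% and 21.1% of the cell in T1D IgA and IgG cells, and 37.2% and 23.5% in control IgA and IgG cells, so that other genes share a larger remainder in IgG cells. The depth also differed, with medians of 4889 and 4264 counts in T1D IgA and IgG cells, and 6769 and 9002 in control IgA and IgG cells. Neutrophil marker counts had medians of 10 and 10.5 in T1D IgA and IgG cells, and 6.5 and 5.5 in control ones.

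Slpi had the lowest log2 ratio of the 40 genes in T1D, and in control it came after Pon3, Ccnd2, Ada and Grn. In T1D it was at 778 CPM in IgA cells (22 of 46 cells, median 0 counts) and 21178 CPM in IgG cells (27 of 28 cells, median 52). In control it was at 463 CPM in IgA cells (29 of 46 cells, median 1) and 3020 CPM in IgG cells (8 of 10 cells, median 11). The log2 ratios of IgA over IgG were -4.76 in T1D and -2.69 in control, and -4.67 and -3.20 without the cells carrying many neutrophil counts. Set within IgA cells alone, the T1D over control ratio of Slpi was 0.74 on the log2 scale and no longer passed the size rule. Within IgG cells alone Slpi was also higher in T1D, at 21178 CPM against 3020 CPM in control. A single cell held 24.3% of these counts in T1D and 40.8% in control. IgG cells were 35.4% of the T1D and 15.4% of the control plasma cells. The part that isotype plays in the ratio over all plasma cells was not tested.

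Ly6a was lower in IgA cells, at 305 CPM against 1253 CPM in IgG cells in T1D, and at 361 against 1968 CPM in control. Ly6c2, the Ly6C surface protein, passed as well, at 332 CPM in IgA and 975 CPM in IgG cells of T1D. In control it was at 246 CPM in IgA and 1165 CPM in IgG cells. It also passed in both libraries without the neutrophil-rich cells. A count was found in 57.0% of T1D and 64.6% of control plasma cells. The other cells had one in 67.3% and 70.9%, at 876 CPM in T1D and 998 CPM in control. How much of the plasma cell counts is background was not tested. Ccnd2, a D-type cyclin, was found in 12 of 46 IgA and 20 of 28 IgG cells in T1D, and in 3 of 46 IgA and 9 of 10 IgG cells in control. Pon3, a lactonase, was at 31.0 CPM in IgA and 123 CPM in IgG cells of T1D, and at 6.39 and 238 CPM in those of control. Cd52, Ada, Grn, the immediate early genes Jun and Egr1, and Creld2 were lower in IgA cells in both libraries as well. These all passed also without the neutrophil-rich cells. Among the 10 control IgG cells, the cell with the most counts held 63.0% of them for Creld2, 57.9% for Ccnd2 and 44.8% for Ly6a. The lowest such share among the genes just named was 18.8%, for Jun. How the control ratios stand without such cells was not tested.

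Derl1, a channel component of ER-associated degradation, was the only one of the 40 named genes higher in IgA cells in both libraries. It was found in 13 of 46 IgA cells and 1 of 28 IgG cells in T1D, and in 21 of 46 IgA cells and 1 of 10 IgG cells in control. Ccr10 was found in 13 of 46 IgA cells and none of 28 IgG cells in T1D, which passed the size rule. In control it was in 21 of 46 IgA cells and 1 of 10 IgG cells, that cell holding 6 counts, which did not pass. Cxcr4 was lower in IgA cells in T1D, at 57.5 CPM against 131 CPM in IgG cells, and in control, at 44.7 against 113 CPM. It passed in neither library without the neutrophil-rich cells. Tnfrsf13b did not differ by the size rule between isotypes in either library, with 23 of 46 IgA and 11 of 28 IgG cells in T1D and 25 of 46 IgA and 9 of 10 IgG cells in control.

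**Figure D5:**
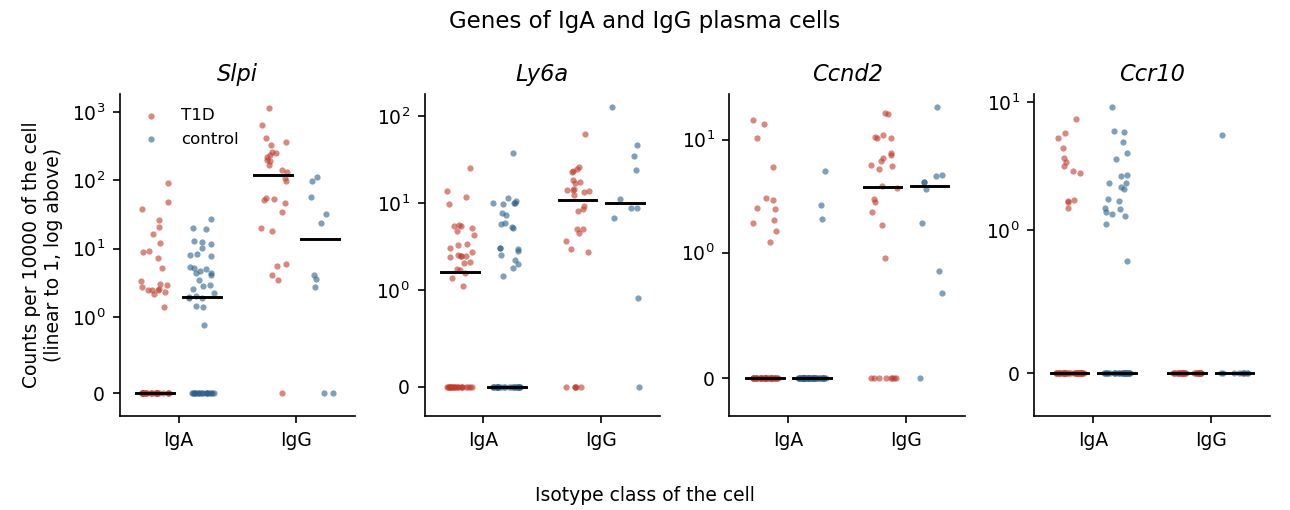
Counts per 10000 of the cell's total (linear to 1, log above) of Slpi, Ly6a, Ccnd2 and Ccr10 in plasma cells called IgA or IgG. Each point is a cell, T1D cells stand left of control cells, and black bars are medians. Slpi, Ly6a and Ccnd2 are higher in IgG cells in both libraries, and Ccr10 was found in no T1D IgG cell and in 1 control IgG cell.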

How the data were processed

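Single-cell RNA libraries (Singleron GEXSCOPE) were made from collagenase- and dispase-digested marrow after red cell lysis, per the labels' protocols. The authors deposited 1 table of whole-number counts for each library, with genes in rows and barcodes in columns, made with bcl2fastq 2.19, featureCounts and mm9, as named in the submitters' processing notes. The sources used here do not give the aligner, annotation, cell calling or any collapse of identifiers. They held 24831 genes and 52022458 counts over 15771 T1D barcodes, and 25395 genes and 57494166 counts over 12880 control barcodes. Genes missing from either table counted as 0 there. Immunoglobulin constant genes, the genes of the selection rule and those of the lists could be named whether or not they passed. The 12 highest and 12 lowest log2 ratios past the size rule were also named, by the cell filters given. Variable and joining genes and the genes of the selection rule were left out of that choice, but genes of the lists were not. The cells and gene lists were chosen with earlier results of these data known. Counts were summed per library and scaled to CPM of that sum. Shares have Clopper-Pearson, CPM Poisson and ratios conditional binomial exact intervals. The scripts were tested on simulated data. Python 3.11.15, scipy 1.17.1, edgeR 4.0.16 and DESeq2 1.42.0 (both for scaling alone) were used. Coordinates are those of RefSeq, as the files give none. Some genes are not reported here.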

Additional observations from a re-analysis of the deposited data

How the results depend on the processing

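The share of plasma cells, the isotype shares and the light chain shares stayed within their counting intervals under the alternatives of selection and calling, except that IgM was at 0.0% of T1D cells when 3 of the 6 markers were asked for. IgG1 was at 8.33 to 12.7% in T1D and 0.0% in control throughout. The numbers of genes past the size rule moved the most: 79 higher and 41 lower with every cell thinned to 1000 counts, 178 lower with immunoglobulin genes left out of the totals, 275 higher with ribosomal RNA left out, 86 higher and 142 lower with DESeq2's size factors, 100 and 52 with 20 CPM added, 364 and 199 at a minimum of 20 CPM and 21 and 20 at 200 CPM. The median log2 ratio of the secretory list lay between -0.46 and -0.12, and that of the survival list between -0.26 and 0.32. Genes higher in IgA than in IgG cells in both libraries numbered 5 without the neutrophil-rich cells, in place of 2, and lower ones 32 in place of 48. Of the genes that passed the size rule, 3 turned: Iglc2 to -0.89 within IgA cells, and Ccr10 to 3.87 and Ccr2 to 2.47 after thinning to 1000 counts, where control had no count of either left. Of those that did not pass, the thinning also turned Creld2 to 0.81 and Ighg2c to 2.18, Ighg2c turned in 3 further settings, up to 0.50, and Cd28 and Tnfrsf13b crossed 0 by small amounts. The causes were not tested. The subset of IgA cells, the selection by 20 Jchain counts without other markers and the comparison of isotypes were added after the data had been seen. Depth limits the rest: genes near the minimum of 50 CPM rest on few counts, and a lone library shows nothing of variation between mice. No library could be left out in turn. No paired analysis was possible because each group has 1 library.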
